A study of Mus musculus with 27 samples.

Results

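Inactivation of Taf4 by 4-hydroxytamoxifen (4-OHT) was followed in mouse ileal organoids, epithelial structures grown in a gel from intestinal crypts, by setting 3 wells of 4-OHT organoids against 3 wells of control organoids, 6 of the 27 RNA-seq libraries of the study. All genes whose mean reached 10 in either group were included, with no choice by how they changed, which kept 13929 of 23597 genes, 12062 of them protein coding. The 4-OHT organoids carried floxed Taf4 (Taf4 lox/lox) together with VilCreERT2, a Cre recombinase fused to an estrogen receptor domain and expressed from the villin promoter in epithelial cells, and received 1 µM 4-OHT for 3 days, a treatment that the labels spell out for replicates 2 and 3. The control wells are labelled as treated with ethanol, whereas the study's methods describe organoids from Taf4 lox/lox mice without the Cre that also received 4-OHT. Both cultures came from ileal crypts of 4-month-old C57Bl6/129sv mice. In either reading the replicates of a group are wells and nothing says that they came from different mice, so the tests below weigh a difference against the variation from well to well. Loss of Taf4, the activity of the Cre and of 4-OHT, and differences between the cultures of origin cannot be told apart in this comparison.

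Taf4 is a subunit of TFIID, the complex that binds core promoters and helps to assemble the RNA polymerase II machinery at the start of genes. In the intestine, Lgr5-positive stem cells at the crypt base, kept by Wnt and Notch signals from neighbouring Paneth cells, give rise to dividing progenitors, and these mature into absorptive enterocytes or into secretory Paneth, goblet, enteroendocrine and tuft cells. Ileal organoids hold all of these cell types in culture, and in the mean of a well fewer cells of a type and less RNA per cell cannot be told apart.

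Values are reads divided by the library's size factor and by transcript length, written below as reads per kb, and the whole reads of each well were recovered from the deposited group means for 13482 of the 13929 genes. The recovered reads came to 14.2 to 15.6 M per 4-OHT well and 11.7 to 13.2 M per control well, and the genes left out, some of them very abundant, held 23.3% of the normalized reads in 4-OHT organoids and 15.7% in control organoids. Wells of a group lay close together: among genes of 1000 to 10000 reads the median coefficient of variation was 3.71% in 4-OHT organoids and 3.73% in control organoids, where counting error alone would give 3.27% and 3.43%. The organoids had the markers of their tissue, with Cdh1, the adhesion protein of epithelia, at 7465 reads per kb in 4-OHT and 6525 in control organoids and Epcam at 8506 and 10076. Markers of other cells stood at low levels. Summed per well, the 12 recovered fibroblast markers ranged over 80.2 to 94.7 reads per kb in 4-OHT and 119 to 149 in control organoids, with the collagens Col1a2 and Col3a1 at means of 2.25 and 1.48 against 1.96 and 2.75. Endothelial markers summed to 18.1 to 27.7 and 19.7 to 25.2, and leukocyte markers to 118 to 136 and 38.6 to 56.8, of which the integrin gene Itgam gave 91.9 and 12.1 while Ptprc, the defining leukocyte gene, was at 0.126 and 0.0729. The part of these markers in the results was not tested.

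The transcript of the targeted gene itself did not mark the knockout. Taf4a, as the annotation names Taf4, gave 292, 292 and 275 reads per kb in the 4-OHT wells, against 262, 274 and 255 in the control wells; each 4-OHT well was higher, the closest wells of the 2 groups being nearly equal (limma log2 fold change 0.12 ± 0.05, adjusted p = 0.045). Its paralog Taf4b gave 47.3, 55.1 and 58.1 in the 4-OHT wells and 55.8, 57.7 and 62.9 in the control wells (-0.14 ± 0.10, limma adjusted p = 0.21), with groups that overlapped. In the knockout (KO) and wild-type (WT) mice described below, mean Taf4a was not lower in KO either. It was 299.5 in embryonic KO and 225.6 in embryonic WT intestine, and 494 in adult KO and 373 in adult WT ileum. Reads were summed over the whole gene, and reads over the floxed exons were not analysed here. Over the 16 tested subunits of TFIID the limma test with the thresholds given below made 0 calls in either direction, with 5 higher and 7 lower at an unadjusted p under 0.05. Of all tested genes at least 35.7% were higher and 36% lower at that p. The widest log2 ratios among them were 0.94 for Taf12 and 0.88 for Taf13 on the higher side and -0.74 for Taf8 on the lower side.

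Expression differed widely between the 2 groups, in both directions about equally. A gene is called higher or lower here when the ratio of group means, log2((4-OHT + 1)/(control + 1)), was at least 1 either way and the limma adjusted p was under 0.05. By this rule 1435 genes rose (10.6% of those tested) and 1377 fell (10.2%). On the ratio of means alone, which also covers the 447 genes without recovered reads, 1659 genes were at least 2-fold higher (11.9%) and 1572 at least 2-fold lower (11.3%). With wells this close together, 9665 genes (71.7%) passed the adjusted p alone, 4812 higher (35.7%) and 4853 lower (36%), and in 5033 genes (37.3%) all 4-OHT wells stood above all control wells while in 5012 (37.2%) all stood below, so group separation without a fold says little here and the counts below use both thresholds. List counts at both thresholds are to be read against 10.6% higher and 10.2% lower among all tested genes. List counts at limma's unadjusted p under 0.05 are to be read against at least 35.7% higher and 36% lower among all tested genes. The median log2 ratio was 0.003, and it would be lower by 0.12 if both groups were scaled to equal totals. The limit of 10 lay between Gm8121, just inside with means of 8.50 in 4-OHT and 10.0 in control organoids, and Chrna4, just outside with 3.64 and 9.99.

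**Figure D1:**
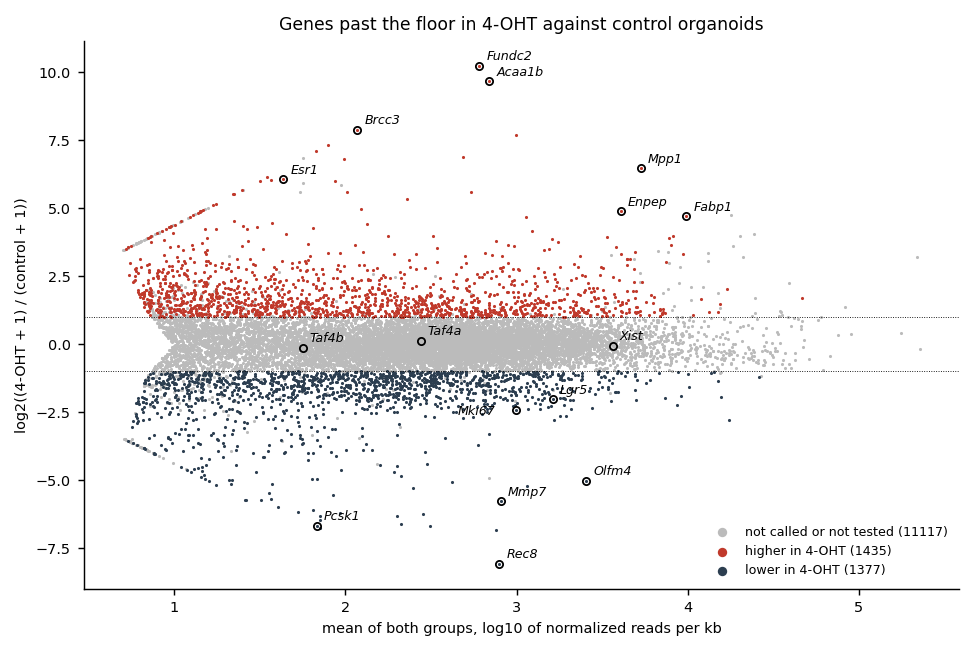
Each point is a gene past the limit of 10, with the mean of both groups on the x axis (log10 of normalized reads per kb) and the log2 ratio of 4-OHT over control means on the y axis; red marks the 1435 genes called higher, dark blue the 1377 called lower, grey the rest, and dotted lines 2-fold. The points spread about evenly above and below 0, and Taf4a and Taf4b lie near 0 while Fundc2 and Rec8 mark the extremes.

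The cell division program was lower in 4-OHT organoids throughout. All 23 genes of mitosis fell, with a median log2 ratio of -2.05, as did 27 of 28 genes of DNA replication (median -1.53) and 19 of 23 genes of DNA repair and damage signalling (median -1.45), against 10.2% of all tested genes. No member of the 3 lists rose, nor was any higher at an unadjusted p under 0.05. Kif11, the motor that separates spindle poles, gave 127, 130.2 and 127 reads per kb in the 4-OHT wells, against 848, 869 and 805 in the control wells, a limma log2 fold change of -2.71 ± 0.05 (adjusted p = 7.2e-20). Mki67, the proliferation antigen Ki67, gave 321, 314 and 299.7 in 4-OHT and 1619, 1743 and 1638 in control wells (-2.42 ± 0.04, adjusted p = 2.0e-20). In neither gene did any 4-OHT well come near a control well. Top2a, which untangles DNA before division, averaged 3038 in 4-OHT and 14281 in control organoids, and Ccna2, the S and G2 phase cyclin, 546 and 2631. In the replication list the log2 ratio was -2.02 for Gins1 of the replicative helicase, -1.87 for the primase-bound polymerase subunit Pola1, -1.84 for Orc1 of the origin complex and -1.67 for Rrm2, the ribonucleotide reductase subunit. Among repair genes, Timeless, which protects replication forks, gave 135, 119.6 and 135 in 4-OHT and 572, 605 and 588 in control wells, and Clspn, the adaptor for checkpoint kinase 1, averaged 368 and 1643. Timeless had a log2 fold change of -2.18 ± 0.08, and both genes were lower in every 4-OHT well than in any control well.

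Regulators of the cycle were lower less uniformly. Of 26 tested cyclins, Cdks and E2F or Rb family genes 10 fell and none rose, with 4 higher and 20 lower at an unadjusted p under 0.05. Foxm1, the transcription factor of late cell cycle genes, averaged 344 reads per kb in 4-OHT and 1357 in control organoids, Mybl2 307 and 1171, and E2f1, which activates replication genes, had a log2 ratio of -1.35. The G1/S cyclin Ccne2 had -2.04, whereas Rb1, which holds E2F factors back, had 0.50 and was not called. The Cdk inhibitors did not move as a family. Cdkn1a, the p21 inhibitor, gave 7359, 7468 and 7296 in 4-OHT and 3314, 2645 and 3543 in control wells (1.23 ± 0.06, adjusted p = 6.9e-13). Its 4-OHT wells were all above the control wells, as were those of Cdkn2b, the p15 inhibitor, which averaged 843 in 4-OHT and 244 in control organoids. Cdkn2c, the p18 inhibitor, went the other way, with 150.1, 145 and 149 in 4-OHT and 969, 1002 and 909 in control wells (-2.69 ± 0.07), and Cdkn2d and Cdkn3 fell with log2 ratios of -1.65 and -2.16. Cdkn1b, the p27 inhibitor, at -0.71 was not called.

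The promoters of mitosis genes often held 2 short motifs that can be read directly. Promoter sequence (250 bases before to 50 after the start, RefSeq, GRCm38.p6) was matched by symbol for 8903 of 13703 gene symbols past the limit. Both strands were searched for CCAAT, the CCAAT box, which the factor NF-Y can bind, and for TTTGAA, the core of the cell cycle homology region of mitotic genes. Of the 19 mitosis promoters 84.2% held CCAAT and 78.9% TTTGAA, where 39.1% and 12.1% of all 8903 did. Of 23 replication promoters 69.6% held CCAAT, while TTTGAA, in 13%, was about as frequent as among all, and 21.7% and 26.1% held TTTCGCGC and TTTGGCGC, forms of the E2F site, against 0.663% and 1.11% of all. The 910 promoters of genes at least 2-fold lower held CCAAT in 45.6% and TTTGAA in 19.1%, and the 964 of genes at least 2-fold higher in 38.5% and 11.7%. Neither motif was confined to genes that fell, since the 24 promoters of xenobiotic enzymes and transporters, a list described below in which most tested members rose, held CCAAT in 50% and TTTGAA in 41.7%, at a median GC content of 45.5% against 60.7% over all promoters. Matches are letters in a window, and which factors bound there was not tested. The 3 promoters below are shown because they carry CCAAT and TTTGAA, in capitals with the E2F form TTTCGCGC of Cdk1, in genes of the list with the lowest median. Kif11 and Mki67 were described above, and Cdk1, the kinase that drives entry into mitosis, was chosen after its values were seen (766, 846 and 871 reads per kb in 4-OHT and 3470.0, 3399 and 3480.1 in control wells). They lie at chr10:69352863-69353162 on the minus strand (Cdk1), chr19:37376132-37376431 on the plus strand (Kif11) and chr7:135716330-135716629 on the minus strand (Mki67), and each is written 5′ to 3′ along its gene.
Cdk1: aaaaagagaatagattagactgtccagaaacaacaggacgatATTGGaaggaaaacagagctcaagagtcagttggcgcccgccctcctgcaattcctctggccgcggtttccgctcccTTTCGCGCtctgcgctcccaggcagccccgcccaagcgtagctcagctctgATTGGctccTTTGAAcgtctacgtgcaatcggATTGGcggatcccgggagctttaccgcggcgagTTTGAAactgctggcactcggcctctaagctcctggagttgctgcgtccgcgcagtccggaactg
Kif11: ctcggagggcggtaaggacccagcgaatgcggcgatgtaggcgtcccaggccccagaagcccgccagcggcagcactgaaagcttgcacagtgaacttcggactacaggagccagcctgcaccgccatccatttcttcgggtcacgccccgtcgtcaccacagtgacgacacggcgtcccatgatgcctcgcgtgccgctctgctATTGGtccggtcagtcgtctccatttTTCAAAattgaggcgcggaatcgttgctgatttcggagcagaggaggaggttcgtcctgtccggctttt
Mki67: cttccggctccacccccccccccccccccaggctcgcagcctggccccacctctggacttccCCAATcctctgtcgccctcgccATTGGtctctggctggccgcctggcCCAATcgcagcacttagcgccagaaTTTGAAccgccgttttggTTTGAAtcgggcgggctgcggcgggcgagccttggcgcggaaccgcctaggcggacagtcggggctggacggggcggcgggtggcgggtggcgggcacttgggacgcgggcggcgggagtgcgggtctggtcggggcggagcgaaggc
In Cdk1 the CCAAT boxes begin 208, 80 and 48 bases before the start, all on the opposite strand and so read as ATTGG. Its TTTGAA matches begin 71 and 15 bases and its E2F form 131 bases before the start. In Kif11 a single CCAAT box (45 bases before the start) and a single TTTGAA (19 bases) are both on the opposite strand. In Mki67 CCAAT stands at 188, 166 and 141 bases and TTTGAA at 116 and 98 bases before the start.

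Markers of the crypt base stem cell were lower as a group, though not to the same degree. Of 22 tested markers 13 fell and 1 rose (median log2 ratio -1.21), against 10.2% and 10.6% of all tested genes. The summed level of the 22 was 16966 to 17903 reads per kb per 4-OHT well, against 37544 to 39226 per control well. Olfm4, a secreted glycoprotein of crypt base cells, gave 134, 179 and 142 in 4-OHT and 5109.8, 5082 and 4650.5 in control wells (-5.04 ± 0.08, adjusted p = 2.4e-20). Lgr5, the R-spondin receptor that defines these cells, gave 635, 663 and 630.1 in 4-OHT and 2635, 2640.0 and 2539 in control wells (-2.02 ± 0.04, adjusted p = 1.1e-19). In both genes the 4-OHT wells lay far below the control wells, and Olfm4 fell the further. The water channel gene Aqp4 gave 13.1, 11.2 and 10.3 in 4-OHT and 491, 494 and 469.9 in control wells, and Ascl2, the transcription factor of the Wnt-dependent stem cell state, 109.9, 120.1 and 116 and 583, 550.3 and 568. Tnfrsf19, a receptor and Wnt target, had 2.00 reads in all 4-OHT wells together, against 56.5, 57.7 and 76.5 reads per kb in control wells, a ratio of control over 4-OHT of 284 (95% counting interval 78.6 to 2345). The member that rose was Tert, the telomerase reverse transcriptase, with 112, 69.4 and 90.3 in 4-OHT and 37.4, 51.4 and 40.9 in control wells (1.06 ± 0.17), and its log2 ratio of 1.05 came to 0.87 without 1 of the 4-OHT wells and 0.96 without 1 of the control wells, short of 2-fold. Cd44, the hyaluronan receptor of crypt cells, had a log2 ratio of 0.42 and was not called.

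**Figure D2:**
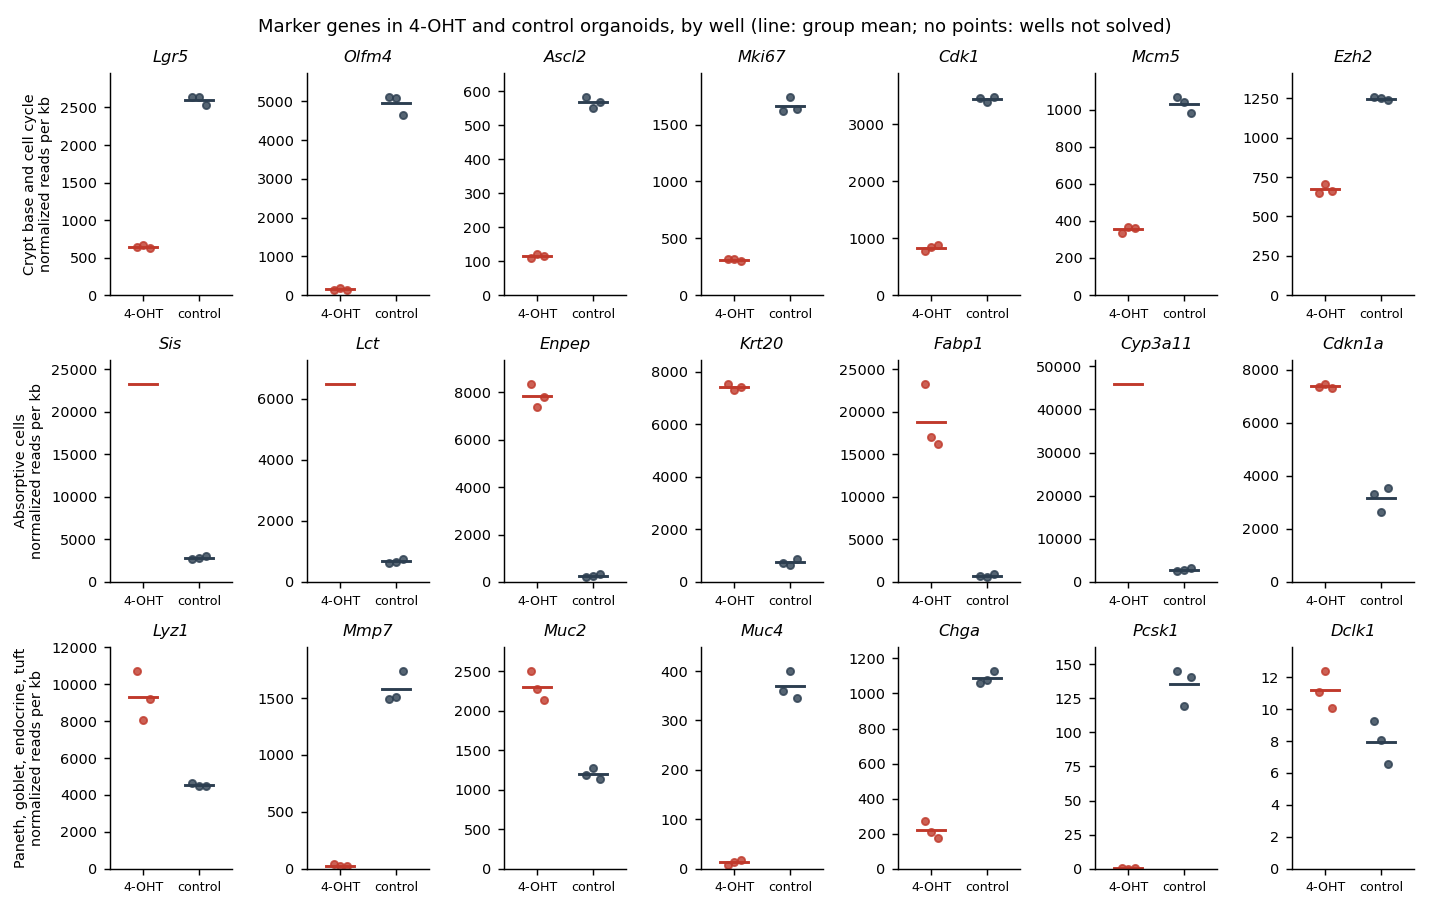
Each panel gives a gene in normalized reads per kb (y axis, from 0), with 1 point per well and a line at the group mean, 4-OHT left of control; where a group has no points its wells could not be recovered and only the mean is drawn. Stem cell and cell cycle genes stand lower in all 4-OHT wells, absorptive genes and Cdkn1a higher, and the secretory panels go both ways. Cdk1 and Mcm5 are not among the genes named by rule.

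Wnt and Notch signalling genes fell in part, where 10.2% of all tested genes fell and 10.6% rose. None of the 14 tested Wnt targets rose and 5 fell, among them Axin2, the feedback inhibitor that reports the pathway, at 2559, 2579.8 and 2714 reads per kb in 4-OHT and 5643, 5521 and 5284 in control wells (-1.07 ± 0.04), Sp5 (log2 ratio -3.29), Nkd1 (-1.57) and Znrf3, the ligase that removes Frizzled receptors (-1.19). At an unadjusted p under 0.05 1 target was higher and 12 were lower, with Ccnd1 at -0.99 just short of 2-fold. Wnt3, the ligand that Paneth cells supply in the crypt, gave 17.3, 16.2 and 17.3 in 4-OHT and 118, 117 and 117 in control wells (-2.78 ± 0.13, adjusted p = 2.5e-13). Its wells were alike within each group and far apart between them. Among receptors Fzd2 and Fzd7 fell (log2 ratios -1.75 and -1.48) while Fzd8 rose (2.04), and Fzd3 rose as well, with 16.9, 13.6 and 12.9 in 4-OHT wells and 1.00 read over the control wells. Of 18 Notch genes 6 fell and 1 rose. Notch1 averaged 1959 in 4-OHT and 4581 in control organoids, Lfng, which sugars Notch receptors, 143 and 446, and the ligand Jag1, the member that rose, 304 and 115. Hes1, the main Notch target, had a log2 ratio of -0.77 and was not called.

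Genes that p53 activates were higher together. Of 23 tested p53 targets 11 rose and none fell (median log2 ratio 1.00), against 10.6% of all genes, and 22 were higher and 0 lower at an unadjusted p under 0.05. Fas, the death receptor, gave 306, 311 and 309 reads per kb in 4-OHT and 49.1, 61.7 and 57.3 in control wells (2.46 ± 0.14, adjusted p = 4.5e-12). The wells of the 2 groups were widely separated. Trp53inp1, Eda2r, Plk2 and Ccng1 rose with log2 ratios of 2.23, 2.08, 1.79 and 1.55. Phlda3, which restrains Akt, averaged 1684 in 4-OHT and 622 in control organoids, and the p53-induced BH3 gene Bbc3 (Puma) 576 and 227. Against 10.6% and 10.2% of all tested genes, 2 of 24 apoptosis regulators rose, Bbc3 and Pmaip1 (Noxa, 1.11), and 4 fell. These include Bik, a BH3 gene (-2.49), Birc5, the survivin gene that also works in mitosis (-1.72), and Dapk1, a death-associated kinase at a mean of 0.426 in 4-OHT and 72.5 in control organoids. Mcl1, Bcl2l1, Bax and Bak1 had log2 ratios of 0.52, 0.82, 0.74 and 0.54 and were not called.

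Most genes of the absorptive enterocyte were higher in 4-OHT organoids, where 10.6% of all tested genes rose. Of 22 brush border and digestion genes with recovered reads 17 rose and none fell (median log2 ratio 1.91 over the 29 past the limit), with 21 higher and 0 lower at an unadjusted p under 0.05, and 7 more without recovered reads were at least 2-fold higher by their means. Enpep, a brush border aminopeptidase, gave 8359, 7392 and 7791 reads per kb in 4-OHT and 219, 266 and 313 in control wells (4.90 ± 0.08, adjusted p = 5.2e-20). Krt20, the keratin of mature villus cells, gave 7545, 7320.2 and 7428 in 4-OHT and 705, 662 and 886 in control wells (3.32 ± 0.06). In both, the lowest 4-OHT well was several times the highest control well. Ace, the peptidase that also makes angiotensin II, gave 1763, 1698 and 1897 in 4-OHT and 122, 134 and 177 in control wells. Alpi, the intestinal alkaline phosphatase, had less even wells, at 632, 375 and 351 in 4-OHT and 151, 165 and 228 in control wells (1.31 ± 0.18, adjusted p = 2.7e-06). Without the highest 4-OHT well its log2 ratio was 0.99 in place of 1.31. The disaccharidases, for which only means were available, averaged 23279 in 4-OHT and 2834 in control organoids for sucrase-isomaltase (Sis) and 6486 and 673 for lactase (Lct). Slc5a1, the sodium-glucose cotransporter, averaged 13874 and 1741.

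Lipid uptake, bile acid, retinoid and drug metabolism genes went the same way. Of 15 tested genes of lipid absorption and lipoproteins 10 rose, of 8 bile acid genes 6, of 10 retinoid and vitamin enzymes 8, and of 18 xenobiotic enzymes and transporters 15, and no member of these 4 lists fell, though 1 retinoid gene, the vitamin D receptor Vdr at -0.77, was lower at an unadjusted p under 0.05. Fabp1, the fatty acid binding protein of proximal enterocytes and liver, gave 23301, 17081 and 16217 reads per kb in 4-OHT and 684, 578 and 911 in control wells (4.72 ± 0.17, adjusted p = 1.9e-15). Its groups were far apart although 1 of the 4-OHT wells stood above the other 2. Apoa4, an apolipoprotein of chylomicrons, averaged 15796 in 4-OHT and 2204 in control organoids, Mttp, which loads lipid onto apolipoprotein B, 9040.4 and 1495, and the sterol exporter Abcg5 6209.9 and 1116. Among bile acid genes the basolateral exporter subunit Ostb had a log2 ratio of 2.44 and the bile acid receptor Nr1h4 (FXR) 2.02, whereas Fgf15, the hormone that FXR induces in ileum, averaged 32.3 and 30.3 and was not called, and the ileal uptake transporter Slc10a2 had a log2 ratio of 0.65. Aldh1a1, which makes retinoic acid, gave 7022, 6719 and 7295 in 4-OHT and 564, 556 and 640.5 in control wells (3.58 ± 0.05). Rbp2, the retinol carrier of enterocytes, and Bco2, a carotenoid cleaving enzyme, had log2 ratios of 3.90 and 3.53. Nr1i3, the xenobiotic receptor CAR, averaged 907 in 4-OHT and 94.2 in control organoids, and Cyp3a11, a main drug-metabolizing P450, 45914 and 2773 by the means alone. In fatty acid oxidation 5 of 14 genes rose, among them the peroxisomal enzyme gene Ehhadh (2.33) and the regulator Ppara (2.09).

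The promoters of absorptive and xenobiotic genes more often carried a TATA box, TATAAA searched on both strands, than promoters at large. It was found in 26.9% of 26 enterocyte, 33.3% of 15 lipid and 33.3% of 24 xenobiotic promoters and 17.6% of 17 stem cell marker promoters, in 13.4% of the 964 promoters of genes at least 2-fold higher and in 8.24% of the 910 of genes at least 2-fold lower, where 7.17% of all 8903 held it. Median GC content was 54.8% in the enterocyte, 56.7% in the lipid and 45.5% in the xenobiotic promoters, against 60.7% over all 8903. The part of base content in these TATAAA shares was not tested. The AP-1 site TGANTCA was found in 8.71% of the 964 and in 4.99% of all, and CAAAGTCCA, a form of the HNF4 site, in 1.35% and 0.494%. TATA promoters are shown for 3 genes described above, with the TATA box and, in Alpi, the HNF4 site in capitals, at chr6:71199629-71199928 on the plus strand (Fabp1), chr11:99438104-99438403 on the minus strand (Krt20) and chr1:87101557-87101856 on the minus strand (Alpi) of GRCm38.p6.
Fabp1: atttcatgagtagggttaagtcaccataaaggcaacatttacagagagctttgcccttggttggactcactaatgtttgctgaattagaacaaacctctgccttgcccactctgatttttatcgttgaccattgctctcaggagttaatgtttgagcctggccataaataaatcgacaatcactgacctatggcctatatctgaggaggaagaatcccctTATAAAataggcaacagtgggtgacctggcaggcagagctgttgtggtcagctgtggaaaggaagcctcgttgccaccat
Krt20: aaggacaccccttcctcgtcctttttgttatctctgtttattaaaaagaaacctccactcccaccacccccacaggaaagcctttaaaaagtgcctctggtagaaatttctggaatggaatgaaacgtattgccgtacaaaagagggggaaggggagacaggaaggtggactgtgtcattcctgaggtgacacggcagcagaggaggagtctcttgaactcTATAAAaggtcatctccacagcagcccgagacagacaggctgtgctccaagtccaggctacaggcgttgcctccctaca
Alpi: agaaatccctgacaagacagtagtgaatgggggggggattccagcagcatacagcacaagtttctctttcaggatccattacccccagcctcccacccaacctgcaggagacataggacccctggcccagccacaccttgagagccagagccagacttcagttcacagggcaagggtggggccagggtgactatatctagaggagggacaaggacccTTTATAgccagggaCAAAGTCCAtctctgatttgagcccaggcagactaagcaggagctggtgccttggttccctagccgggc
The TATA box begins 30 bases before the start in Fabp1 and 29 bases before it in Krt20, on the strand of the gene. In Alpi a match on the opposite strand begins 33 bases and the HNF4 site 19 bases before the start. These are descriptions of letters, and whether TFIID or HNF4 used them was not tested.

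Transcription factors of the intestinal epithelium did not move with the enterocyte genes as a group. Of 25 tested 4 rose and 3 fell (median log2 ratio -0.25), not far from the 10.6% and 10.2% of all tested genes. Hnf4g, a nuclear receptor of enterocytes, gave 1714, 1502 and 1599.8 reads per kb in 4-OHT and 398, 425 and 439 in control wells (1.93 ± 0.05), and Creb3l3, which drives lipid genes, averaged 3838 in 4-OHT and 498 in control organoids. Cdx2, the homeobox factor that gives the intestine its identity, went down, with 1147, 1038 and 1116 in 4-OHT and 2537, 2364 and 2577 in control wells (-1.18 ± 0.04, adjusted p = 2.5e-15). Its groups did not overlap. Foxa2 and Ehf fell as well, with log2 ratios of -2.02 and -1.43.

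Sugar metabolism split in part by direction of the pathway. Of 11 tested genes of gluconeogenesis and fructose handling 8 rose and 1 fell (median log2 ratio 2.25), and of 18 tested glycolysis and hypoxia genes 11 fell and none rose (median -1.07), with 1 higher and 16 lower at an unadjusted p under 0.05. Of 6 more glycolysis and hypoxia genes, with means only, 1 was at least 2-fold higher (log2 ratio 3.18) and 2 at least 2-fold lower. The means of all 24 summed to 608873 reads per kb in 4-OHT and 381915 in control organoids. Fbp1, which commits carbon to gluconeogenesis, gave 432, 271 and 301 reads per kb in 4-OHT and 24.3, 10.3 and 27.1 in control wells (4.06 ± 0.41). Khk, the first enzyme of fructose use, had a log2 ratio of 3.02 and the fructose transporter Slc2a5 2.81. Pck2, the mitochondrial carboxykinase, was the exception at -2.30. Hk2, the inducible hexokinase, gave 230.5, 226 and 228 in 4-OHT and 1229, 1085 and 1205 in control wells (-2.36 ± 0.06, adjusted p = 3.5e-17). The hypoxia genes Car9, Bnip3 and Egln3 fell too, with log2 ratios of -2.64, -2.07 and -1.76, whereas Hif1a itself was at 0.54 and not called. None of 21 tested genes of cholesterol synthesis and none of 24 oxidative phosphorylation subunits passed both thresholds. At an unadjusted p under 0.05 the limma test had 10 cholesterol genes higher and 10 lower, and 17 respiratory subunits higher and 1 lower, with medians of -0.02 and 0.21.

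Secretory lineages did not share a direction. Of 18 tested Paneth cell markers 10 fell and 2 rose (median log2 ratio -1.19), against 10.2% and 10.6% of all tested genes. Mmp7, the protease that activates Paneth cell defensins, gave 39.7, 20.4 and 23.4 reads per kb in 4-OHT and 1495, 1513 and 1739.9 in control wells (-5.85 ± 0.24, adjusted p = 1.6e-14). Lyz1, the Paneth cell lysozyme, gave the opposite, 10731, 8082 and 9182 in 4-OHT and 4646, 4467 and 4459.9 in control wells (1.04 ± 0.07, adjusted p = 2.2e-11). The wells of both genes were fully apart, Mmp7 lower and Lyz1 higher in each 4-OHT well, but the log2 ratio of Lyz1 came to 0.93 without 1 of the 4-OHT wells and 0.92 with totals made equal, short of 2-fold. The lectin Itln1, the ribonuclease Ang4 and the defensin gene Defa17 fell with log2 ratios of -2.81, -2.63 and -1.82, and defensin genes are near-identical copies between which reads can be split. Spink4 was at 0.67 and not called. Reg3b, an antibacterial lectin, gave 78.4, 34.6 and 63.6 in 4-OHT and 2227, 2195 and 2269 in control wells (-5.29 ± 0.19), and its relative Reg3g averaged 43.7 in 4-OHT and 1344 in control organoids.

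Among goblet cell markers 4 rose and 5 fell of 17, where 10.6% of all tested genes rose and 10.2% fell. Muc2, the mucin that builds intestinal mucus, gave 2507, 2277 and 2138 in 4-OHT and 1185, 1280.0 and 1136 in control wells (0.94 ± 0.05), higher in every well but short of 2-fold, and Zg16, a mucus lectin, averaged 34311 in 4-OHT and 1264 in control organoids by the means alone. The membrane mucin Muc4 averaged 13.2 in 4-OHT and 369 in control organoids, the trefoil peptide Tff2 6.37 and 182, and Agr2, which folds mucins, 1648 and 5238. Enteroendocrine genes were mostly lower, 10 of 17 against 1 that rose. Chga, the granule protein chromogranin A, gave 274, 207 and 177 in 4-OHT and 1058, 1077 and 1129.8 in control wells (-2.32 ± 0.09, adjusted p = 6.9e-15), Neurod1, a differentiation factor of these cells, averaged 0.722 and 31.3, and Pcsk1, which cuts prohormones, had 2.00 reads over all 4-OHT wells, a ratio of control over 4-OHT of 409 (95% counting interval 113 to 3378). Neurog3, the factor that starts the lineage, was not called and had a log2 ratio of 0.83, above 0 where most of the list lay below. Of 7 tested tuft cell genes Hpgds, a prostaglandin D synthase, fell (-2.54) and none rose, with 4 higher at an unadjusted p under 0.05, and Dclk1 averaged 11.2 in 4-OHT and 7.95 in control organoids.

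Genes of fetal-type and regenerating epithelium were higher. Of 20 tested 11 rose and none fell (median log2 ratio 1.11), where 10.6% of all tested genes rose and 10.2% fell. At an unadjusted p under 0.05 18 were higher and 1 lower. Clu, a chaperone that marks revival stem cells, gave 3887, 4231 and 4590.4 reads per kb in 4-OHT and 424, 414 and 508 in control wells (3.24 ± 0.08, adjusted p = 1.9e-17). Every 4-OHT well was several times the highest control well. S100a11, Anxa10, Il1rn (the interleukin 1 receptor antagonist) and the EGF family ligand Areg rose with log2 ratios of 2.78, 2.49, 1.95 and 1.66, while Krt7 was at -0.19 and not called. Immediate early genes rose in 6 of 18 and fell in none, 11 being higher and 2 lower at an unadjusted p under 0.05. Fos, an AP-1 subunit, gave 828, 761 and 842 in 4-OHT and 196, 172 and 219 in control wells (2.05 ± 0.10). Of 13 tested NRF2 and glutathione genes 4 rose, with log2 ratios of 3.97 for Gsta1, 2.67 for the quinone reductase Nqo1 and 1.51 for Srxn1, and 5 more without recovered reads were at least 2-fold higher. None of the NRF2 list was lower at an unadjusted p under 0.05. YAP targets went both ways, 4 higher and 2 lower of 11, the matricellular gene Cyr61 at 1.43 and coagulation factor F3 at 1.62 among those that rose and Tead4, a DNA-binding partner of YAP, at -1.25 among those that fell.

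**Figure D3:**
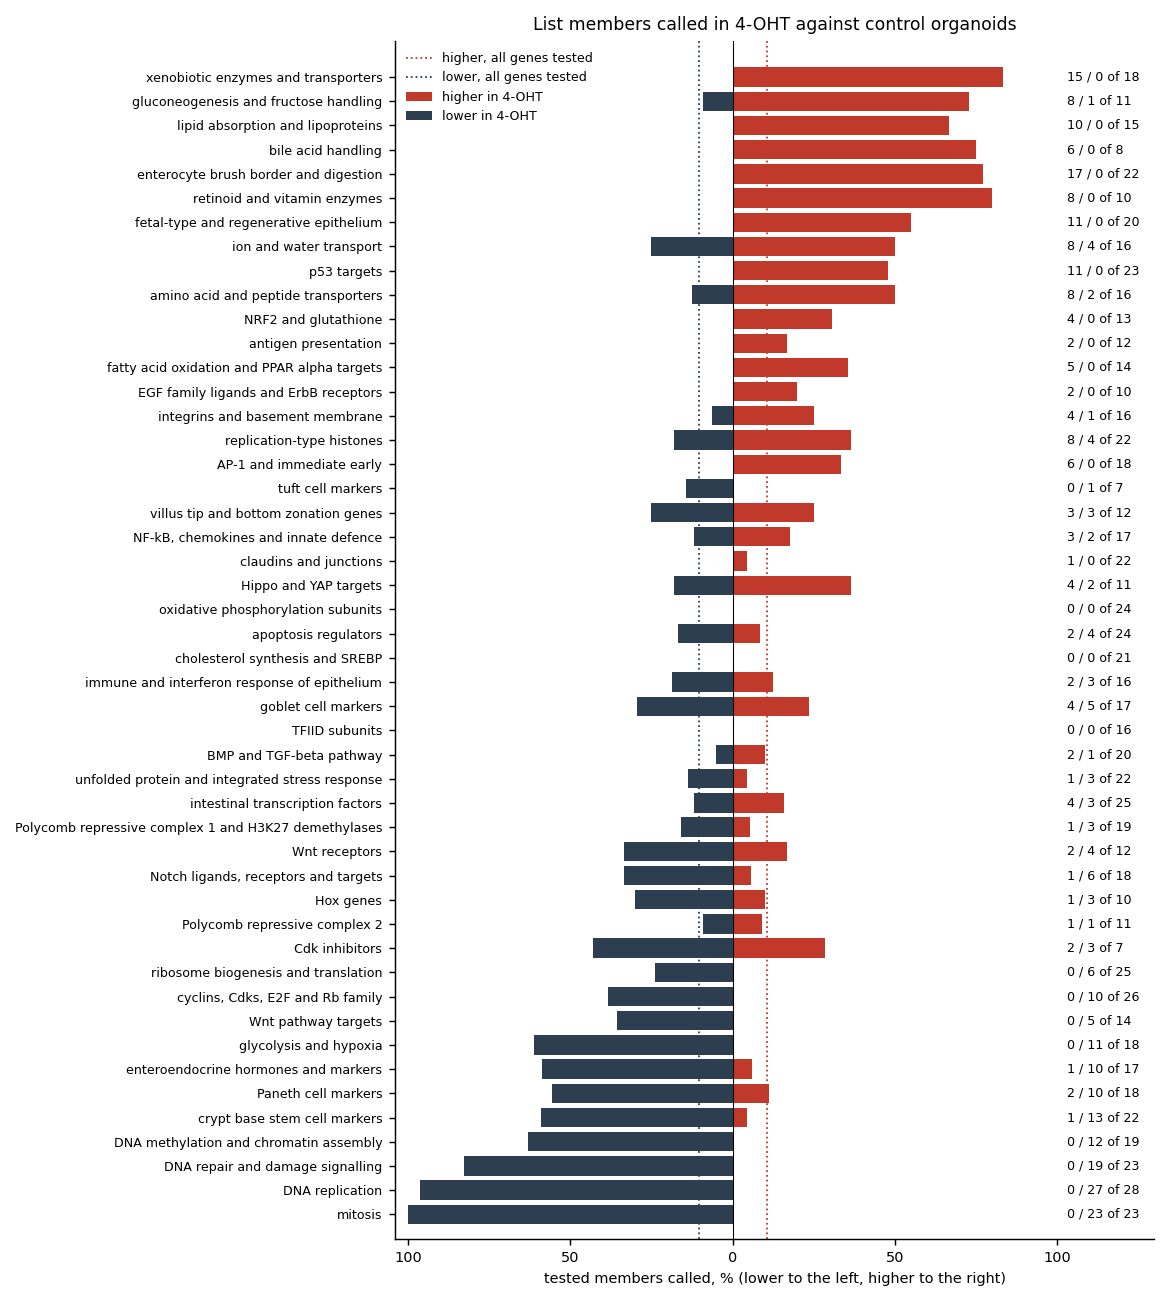
For each gene list the bars give the percentage of tested members called higher (red, to the right) or lower (dark blue, to the left) in 4-OHT against control organoids, with the counts as higher / lower of tested at the right; dotted lines mark the same percentages over all genes tested, 10.6% and 10.2%. The lists of xenobiotic, retinoid and enterocyte genes reach furthest to the right, and those of mitosis, DNA replication and DNA repair furthest to the left.

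Polycomb genes were called about as often as all tested genes, of which 10.6% rose and 10.2% fell, and most were lower by less than 2-fold. More calls were made among the enzymes that accompany DNA replication. Of 11 members of Polycomb repressive complex 2, which places H3K27 methylation, 1 rose and 1 fell, with 2 higher and 9 lower at an unadjusted p under 0.05 and a median log2 ratio of -0.68. Ezh2, its catalytic subunit, gave 646, 706 and 662 reads per kb in 4-OHT and 1259, 1251 and 1238 in control wells (-0.90 ± 0.04, adjusted p = 3.7e-13). All its 4-OHT wells were below the control wells, by less than 2-fold as deposited and at a log2 ratio of -1.02 with totals made equal. The core subunit Suz12 had a log2 ratio of -0.96, which also passed 2-fold with totals made equal, Eed had -0.24 and the alternative methyltransferase Ezh1 0.56, none of them called as deposited, whereas the histone binding subunit Rbbp7 fell (-1.32) and the accessory subunit Phf1 rose (1.42). Of 19 tested genes of Polycomb complex 1 and the H3K27 demethylases 3 fell and 1 rose, with 2 higher and 15 lower at an unadjusted p under 0.05. Those that fell were the chromodomain gene Cbx2 (-1.29), the CpG-binding Kdm2b (-1.05) and Pcgf5, a RING finger subunit (-1.06), and Cbx6 and Cbx7, which have means only, were at -3.03 and -1.29. Phc3, a Polyhomeotic subunit, rose by just 2-fold (1.00) and came to 0.97 without 1 of the 4-OHT wells or either of 2 control wells. Of 19 genes of DNA methylation and chromatin assembly 12 fell and none rose, with 2 higher and 17 lower at an unadjusted p under 0.05. Dnmt1, the maintenance methyltransferase, averaged 335 in 4-OHT and 1069 in control organoids, its partner Uhrf1 353 and 1041, and the remodeller Hells 765 and 3016. Replication-type histone genes went both ways, 8 higher and 4 lower of 22. The 4 that were lower depended on single wells, coming to 2 without either of 2 4-OHT wells or 1 of the control wells and to 6 without another control well, and Hist1h3a (-1.36) lost its call in 3 of these cases. Hist1h1c, a linker histone gene, gave 1470.5, 1406 and 1366 in 4-OHT and 224, 209.6 and 227 in control wells (2.68 ± 0.06), Hist1h2bc had a log2 ratio of 2.40, and Hist1h3c and Hist1h1b fell (-1.94 and -1.91). These genes are close copies between which reads can be split, and most of their transcripts lack poly(A) tails while the labels give poly(A) RNA. Of 10 Hox genes 3 fell and 1 rose, Hoxa6 with a log2 ratio of -3.53, Hoxa7 with -3.10 and Hoxa10 with 1.00 read over the 4-OHT wells, against 38.4, 40.0 and 49.3 reads per kb in the control wells. Ribosome biogenesis genes fell in 6 of 25 and rose in none (1 higher and 24 lower at an unadjusted p under 0.05), with Ncl, the nucleolar protein nucleolin, at -1.11 and Npm1, nucleophosmin, at -1.02.

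The widest changes were of another kind, genes that were read in one group and near 0 in the other. Rec8, a meiotic cohesin subunit (chromosome 14, 56236874 to 56244232, mm9), gave 9.52, 3.41 and 1.72 reads per kb in 4-OHT and 1651, 1618 and 1475 in control wells (-8.33 ± 0.50, adjusted p = 7.8e-12). Aldh1l1, a folate enzyme, gave 14.8, 12.7 and 9.61 in 4-OHT and 1525, 1429.7 and 1564 in control wells. Both genes were read at a high level in every control well and hardly at all in the 4-OHT wells. Plod2, a collagen lysyl hydroxylase, had 2.00 reads over the 4-OHT wells, against a control mean of 141 reads per kb, and Pdx1, the homeobox gene of duodenum and pancreas, had none, against 29.0, 29.2 and 27.7 in control wells, at least 122-fold lower when 3 reads over the group are taken as the floor. On the other side, Acaa1b, a peroxisomal thiolase, gave 1557, 1287 and 1290.1 in 4-OHT wells and 2.00 reads over the control wells, a ratio of 4-OHT over control of 1946 (95% counting interval 539 to 16073). Bex1 averaged 158 in 4-OHT organoids and had 0 reads in control organoids, at least 96.4-fold higher by the same floor. Among 11087 genes that reached 50 in both embryonic and adult wild-type intestine, 5 were below 1 in 4-OHT organoids (Dapk1, Flot2, Plod2, Tmem184c, Tnfrsf19) and 9 annotated entries were below 1 in control organoids (Bex1, Brcc3, Casd1, Dbn1, Fam111a, Fundc2, Zfp275 and both entries of Mtcp1). Tmem184c, Dbn1 and Fam111a lie outside the rule for named genes and were added after their values were seen.

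A run of neighbouring genes on chromosome X had no reads in any control well. Over 72418054 to 72731092 (mm9), F8, Fundc2, both entries of Mtcp1, Brcc3, Gm15379 and Gm15385 were at 0 reads in all 3 control wells, while 3 predicted genes that lie among them (Gm6039, Gm8522 and Gm8666) had 5 reads or fewer per control well. In 4-OHT wells Fundc2, a mitochondrial outer membrane protein gene, gave 1149.9, 1267 and 1198 reads per kb, at least 404-fold higher than in control wells, and Brcc3, a deubiquitinase, 234, 236 and 232, at least 499-fold higher. Mpp1, a membrane scaffold gene next to the run (chromosome X, 72355072 to 72376355), gave 10767, 10183 and 10555 in 4-OHT wells and 102, 105 and 144 in control wells (6.50 ± 0.13, adjusted p = 5.1e-19). Genes further out were read in both groups, Dkc1 of the telomerase complex at means of 1177 in 4-OHT and 2848 in control organoids and the chaperone gene Vbp1 at 650.3 and 899. The 4-OHT and EPZ organoids described below had Fundc2 at 6033 but Mpp1 at 113, the level of the control organoids. Whether the run is missing from the genome of the control culture or silent in it was not tested, and the genes of the run, other than Fundc2, Mtcp1 and Brcc3, were chosen after their values were seen.

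**Figure D4:**
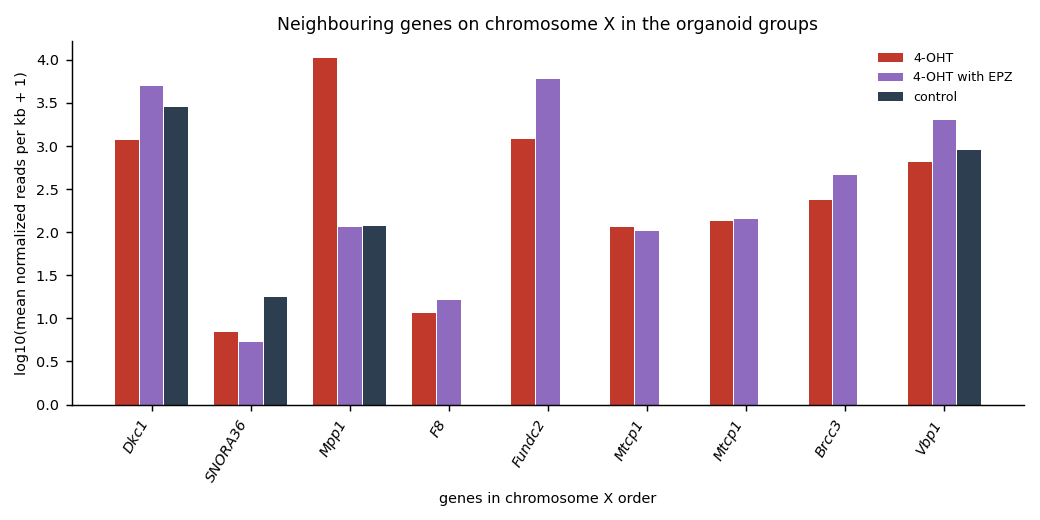
Bars give the mean of each organoid group for genes in their order on chromosome X, leaving out genes below the limit of 10, as log10 of normalized reads per kb plus 1, so that no bar means 0 reads; 4-OHT is red, 4-OHT with EPZ purple and control dark blue, and Mtcp1 appears once for each of its 2 entries. Control bars are missing from F8 to Brcc3 and present at both ends, and Mpp1 is high in 4-OHT organoids alone.

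Esr1, which encodes estrogen receptor alpha (chromosome 10, 5340927 to 5734948, mm9), was among the 12 largest increases. It gave 83.2, 85.9 and 90.1 reads per kb in 4-OHT and 0, 0.464 and 0.487 in control wells, 2.00 control reads in all, a ratio of 4-OHT over control of 281 (95% counting interval 77.8 to 2319). The CreERT2 transgene holds part of the estrogen receptor sequence, and whether these reads came from the transgene or from the gene was not tested. In mice the means were 5.29 in embryonic KO and 8.47 in embryonic WT intestine, and 73.6 in adult KO and 29.4 in adult WT ileum. Of the estrogen-responsive genes listed, Greb1 fell (-1.55) and Ltf rose (1.83), and Pgr was at 0 in 4-OHT and 0 in control organoids.

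Another set of organoids can be set beside these values. It received 4-OHT together with 1 µM EPZ-6438 (EPZ), an inhibitor of Ezh2, and was labelled as grown for 11 days. The study's methods give Taf4 lox/lox with VilCreERT2 for this set and a day of culture later than the label. They give day 3 of culture for the 4-OHT and control wells. Drug and time thus differ from the 4-OHT wells at once and no test was made. Among its 3 wells 1 stood apart from the other 2. Of the 1435 genes that rose with 4-OHT, the mean of the EPZ organoids was within 2-fold of control for 834, past 2-fold on the same side for 420 and past it on the other side for 181. Of the 1377 that fell, the counts were 894, 389 and 94. These genes were called against the same control means, and the share over all genes was not counted, so the counts only describe positions. Lgr5 averaged 643 in 4-OHT, 2009 in EPZ and 2605 in control organoids, and Olfm4 152, 4243 and 4947, so both stood near control in EPZ organoids. Ascl2 did not, with 115 in 4-OHT, 134 in EPZ and 567 in control organoids. Mki67 lay between, at 312, 802 and 1667. Fas and Cdkn1a stayed on the 4-OHT side, with Fas at 309 in 4-OHT, 276 in EPZ and 56.0 in control organoids and Cdkn1a at 7374, 8663 and 3167. The p53 target Bbc3 did not, at 576 in 4-OHT, 243 in EPZ and 227 in control organoids. Several enterocyte genes went past control to the other side, Fabp1 at 18866, 240.3 and 724 and Lct at 6486, 6.82 and 673. Sis stood near control, at 23279 in 4-OHT, 2792 in EPZ and 2834 in control organoids.

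Knockout of Taf4 in mice gave other directions for most absorptive genes. These samples were intestine of embryos at E17.5 and ileum of adults 8 weeks old, from 3 KO and 3 WT mice at each stage and of the same strain as the organoids. The methods give Taf4 lox/lox with VilCre for the embryonic KO, Taf4 lox/lox with VilCreERT2 and tamoxifen for the adult KO, and Taf4 lox/lox without a Cre for both controls. The labels have tamoxifen for all KO and sunflower oil for all WT mice, where the methods have tamoxifen for adult controls too. Only group means were available and no reads were recovered, so that 2-fold changes are given without a test. The methods describe no isolation of epithelium for these mouse samples, whereas the organoids are epithelial. The time since inactivation of the gene also differed between mice and organoids. How far other cells of the tissue or this time account for differences from the organoids was not tested. In embryos 313 of 15822 genes (1.98%) were at least 2-fold higher and 1273 (8.05%) at least 2-fold lower in KO, and in adults 527 of 15937 (3.31%) and 898 (5.63%). Of the 29 enterocyte genes past the limit in embryos 19 were at least 2-fold lower and 0 higher, with a median log2 ratio of -1.80, and in adults 17 were lower and 3 higher (median -1.18), where the organoid median was 1.91. Alpi averaged 509 in embryonic KO and 7457 in embryonic WT intestine and 292 and 2976 in adult KO and WT ileum, whereas it was higher in 4-OHT organoids. Sis was higher in adult KO as in organoids, at 25500 against 6267 in adult WT ileum, but averaged 7.78 and 20.3 in embryonic KO and WT. Of 17 fatty acid oxidation genes 3 were at least 2-fold higher and 0 lower in adults (median 0.42). In embryos 0 were higher and 7 lower (median -0.78). Lipid genes had medians of -1.69 in embryos and -0.69 in adults against 1.98 in organoids. Mitosis genes, all lower in organoids, had 0 of 23 past 2-fold at either stage. Of replication-type histone genes 13 of 17 in embryos and 22 of 25 in adults were at least 2-fold higher, with medians of 1.52 in embryos and 2.06 in adults. Across the 13122 genes past the limit in both organoids and embryos, the log2 ratios had a Pearson r of -0.19 and a Spearman rho of -0.26, and across 13232 genes in organoids and adults 0.080 and 0.081, as a description across genes, which are not independent replicates. Of these 13122 genes 1.43% were at least 2-fold higher and 7.42% at least 2-fold lower in embryonic KO. Of the 1401 at least 2-fold higher in 4-OHT organoids by their means, 73 (5.21%) were also higher in embryos, which is 38.8% of those higher there, and 357 (25.5%) were lower, which is 36.7% of those lower there. Of the 1368 at least 2-fold lower in organoids, 33 (2.41%, and 17.6% of those higher in embryos) were higher and 117 (8.55%, and 12% of those lower in embryos) were lower. In adult KO 2.65% of the 13232 genes were at least 2-fold higher and 4.53% lower. Of the 1461 higher in organoids, 167 (11.4%, and 47.6% of those higher in adults) were higher and 199 (13.6%, and 33.2% of those lower in adults) were lower in adults, and of the 1380 lower in organoids 32 (2.32%, and 9.12%) were higher and 118 (8.55%, and 19.7%) were lower.

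**Figure D5:**
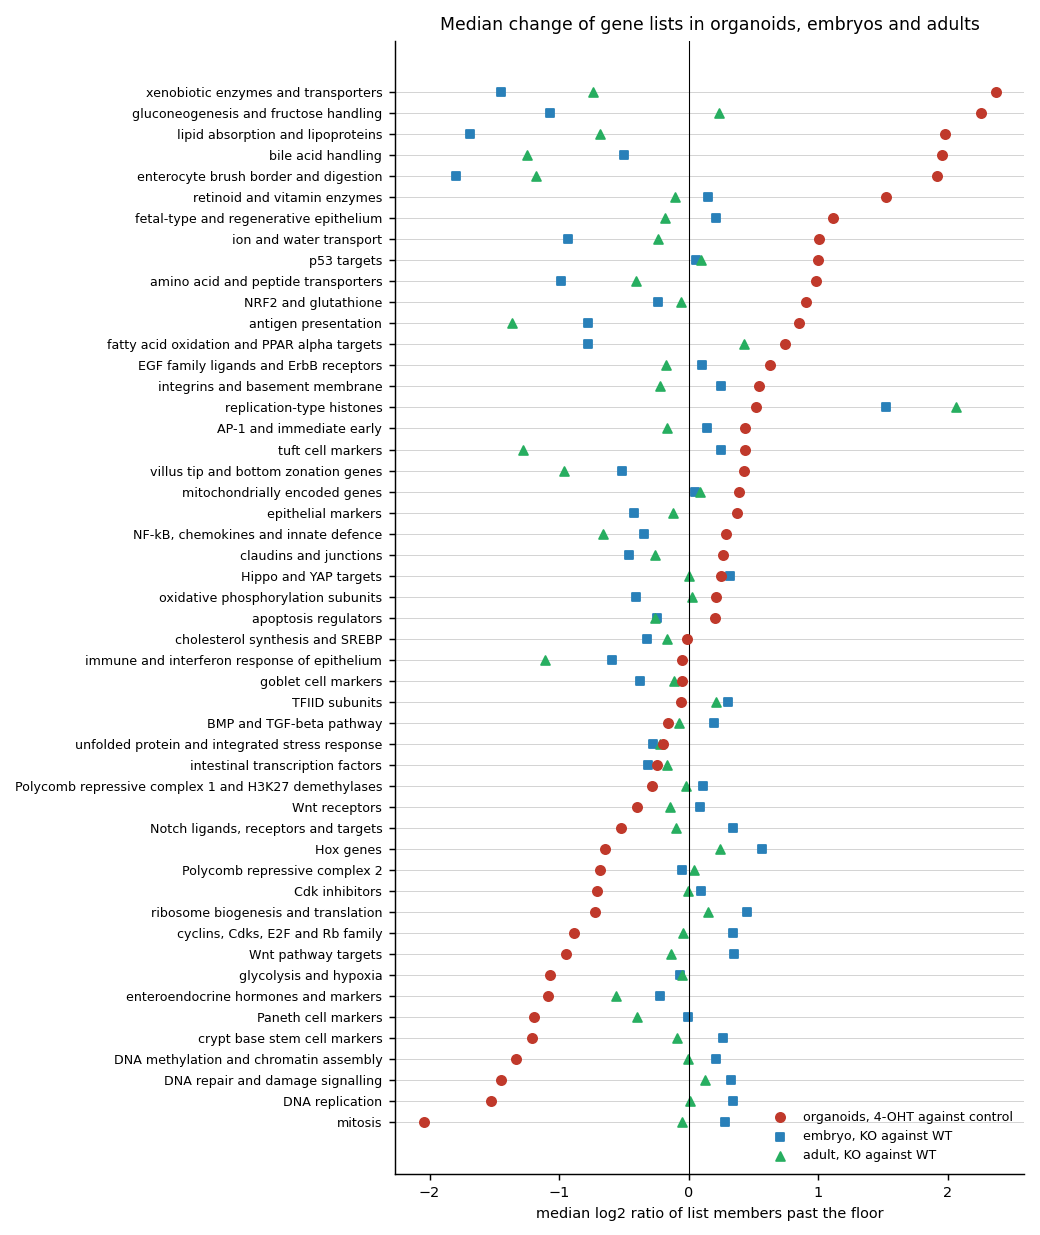
Each row is a gene list and each symbol the median log2 ratio of its members past the limit, for 4-OHT against control organoids (red circles), embryonic KO against WT (blue squares) and adult KO against WT (green triangles). The absorptive lists at the top have organoid medians of about 2 beside negative embryo and mostly negative adult medians, and the cell division lists at the bottom have negative organoid medians beside embryo and adult medians near 0.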

How the data were processed

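Libraries came from 27 mouse samples in 9 groups of 3, of which the 3 wells of 4-OHT organoids and the 3 of control organoids were compared and the EPZ, embryonic and adult groups were set beside them. The submitters' processing notes and the study's methods name bcl2fastq 2.17.1.14, cutadapt 1.10, Bowtie2 2.2.8 (removal of ribosomal reads), STAR 2.5.3a (alignment to mm9) and HTSeq (reads per Ensembl release 67 gene). The labels give a stranded poly(A) kit and the methods an amplification kit, and which was used for these wells was not resolved. The authors deposited 1 signal per gene and group, the mean over 3 wells of reads divided by a median-of-ratios size factor and by transcript length in kb. The authors' own fold changes and p-values, deposited for other pairs of groups, were not used, and all per-sample columns were assigned (0 left over).

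The planned measure was log2((4-OHT + 1)/(control + 1)) over genes with a mean of at least 10, with a fold of 2 and no test. After the files were seen, the means were found to hold enough digits to solve for the whole reads of each well, given 1 size factor per well and the length of each gene. This succeeded for 97.2% of genes in 4-OHT and 97.5% in control organoids. Solved wells carry no replicate number. The recovered reads were tested with limma 3.58.1 (voom, R 4.3.3), scaled by the solved size factors, with Benjamini and Hochberg adjustment over all 13482 genes. Both steps were tested on simulated data. The 447 genes that were not solved have means only. Over all genes, 442 in 4-OHT and 420 in control organoids had no solution. Another 84 and 49 had too many reads to solve, and 130 had no length. Intervals and floors (3 reads) cover counting error only.

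Gene lists, 59 in number, and the members were chosen with earlier results of these data known. Named are Taf4a and Taf4b, the 12 largest changes per direction at a mean of at least 50, up to 8 members of each list in the direction of its median and 3 against it, all members of lists of 12 or fewer, and fixed markers. Tables and plots were made in Python 3.11.15 (matplotlib 3.10.9, scipy 1.17.1, pandas 2.3.3, numpy 2.4.6).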

Additional observations from a re-analysis of the deposited data

How the results depend on the processing

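The counts depended mainly on the limit on low values and on the fold. Genes at least 2-fold higher numbered 1659, against 2893 without a limit, 1027 with a limit of 50 and 796 at a fold of 3, and genes at least 2-fold lower 1572, against 2603, 1047 and 757. With the adjusted p as well, 1435 higher became 947 at a limit of 50 and 689 at a fold of 3, and 1377 lower became 667 at a fold of 3. Members of all lists that were past 2-fold numbered 199 higher and 218 lower, against 119 and 121 at a fold of 3, and with the adjusted p 162 and 207, against 96 and 118. Beside the mice at a limit of 50, genes higher in both organoids and embryos numbered 22 in place of 73, lower in organoids and higher in embryos 9 in place of 33 (51 with totals made equal), lower in both 54 in place of 117, higher in both organoids and adults 62 in place of 167, lower in organoids and higher in adults 3 in place of 32, and lower in both 59 in place of 118.

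Leaving out each well in turn, chosen after seeing the data, gave 1372 to 1447 genes higher and 1359 to 1408 lower, with 161 to 167 list members higher and 206 to 212 lower. With totals made equal 1219 genes were higher and 1643 lower. No call of a named gene reversed under any alternative run. Over all named genes and settings the call was lost 117 times, 87 of them at a fold of 3, and gained 39 times. Apart from that fold, Lyz1, Tert, Alpi, Pmaip1, Kdm2b, Phc3, Hist1h3a and Cldn23, of the genes described, lost it under at least 1 setting, and Ezh2, Suz12 and Ccnd1 gained it with totals made equal. No paired analysis was possible because the wells recovered from the group means carry no replicate number. The p-values cover only the spread between wells, since no source names more than 1 culture per group.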

Other observations

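Some gene groups not described above were also counted, by the same 2 thresholds, at which 10.6% of all tested genes rose and 10.2% fell. Of 12 tested antigen presentation genes 2 rose, H2-Q2 (log2 ratio 2.07) and H2-DMa (1.73), and none fell, while 11 were higher and 0 lower at limma's unadjusted p under 0.05. B2m, the light chain of class I molecules, averaged 7146 reads per kb in 4-OHT and 3740.2 in control organoids and was not called. Interferon response genes went both ways, 2 higher and 3 lower of 16, Irf7, a regulator of the response, at 2.09 and the chemokine gene Cxcl10 at -1.62.

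Transporters for amino acids and ions rose more often than they fell. Of 16 tested amino acid and peptide transporters 8 rose and 2 fell. Slc6a19, the main neutral amino acid carrier of the brush border, gave 3434, 2981 and 3033 reads per kb in the 4-OHT wells, against 402, 415 and 497 in the control wells. Slc7a5, which serves dividing cells, was among those that fell (-1.43). Of 16 ion and water transport genes 8 rose, among them the sodium-proton exchanger Slc9a3 (2.90) and the guanylin genes Guca2a and Guca2b (1.16 and 2.28), and 4 fell, among them the water channel gene Aqp1 (-1.19).

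The serine synthesis enzyme Psat1 fell, with 692, 683 and 640.1 reads per kb in the 4-OHT wells and 3584, 3375 and 3553 in the control wells, and the one-carbon enzymes Shmt2 and Mthfd2 fell with log2 ratios of -1.25 and -1.07, in a list of 22 tested stress response genes of which 1 rose and 3 fell. Of 16 integrin and basement membrane genes 4 rose and 1 fell, among them the laminin gene Lama3 at 2.36 and the integrin gene Itga2 at -1.26. Of 22 claudin and junction genes Cldn23 rose (1.03) and none fell, with 14 higher and 6 lower at limma's unadjusted p under 0.05.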
